A study of Macaca mulatta with 25 samples.

Results

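SEMA3D, ECRG4, GRIA2, CDH12 and SYT10 are 5 genes, most of them best known from the nervous system, whose signals were lower in the cervix of progesterone-treated rhesus macaques. They were chosen by their log2 differences from estradiol alone in an earlier account of the same arrays, which listed them as lower under progesterone. Those differences are therefore given as descriptions, with no test. They are 5 of the 15534 genes that the array annotation names with 1 symbol. Each was read by exactly 1 of the 40489 probe sets, the one annotated with that symbol alone: 13729524 for SEMA3D, 13640874 for ECRG4, 13754240 for GRIA2, 13765500 for CDH12 and 13624141 for SYT10.

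The study followed the cervix through artificial menstrual cycles in 25 ovariectomized rhesus macaques (Macaca mulatta), 5 animals in each of 5 groups, with 1 whole-transcript array per animal. All animals carried a subcutaneous estrogen implant. The E2 group had estrogen alone, for 14 days per its label. A progesterone implant was added for 1 day in E+1P, 3 days in E+3P, 7 days in E+7P or 14 days in E+14P, and the labels do not say how long these animals had estrogen. The series' design text states other group sizes for the reproductive tracts, while groups here were taken from each array's label. Removal of the ovaries leaves the implants as the main source of these steroids. The groups were killed at different days, so each time holds different animals. The whole cervix was homogenised, so every signal is an average over epithelium, stroma, muscle, vessels and nerves.

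Class 3 semaphorins such as SEMA3D are secreted guidance cues that act through neuropilin and plexin receptors, on growing axons and also on blood vessels. ECRG4 encodes a secreted precursor, augurin, known from the choroid plexus and from epithelia, and it can bind a receptor complex of TLR4, CD14 and LY96 on leukocytes. GRIA2 encodes the AMPA-type glutamate receptor subunit that limits calcium entry through the channel. CDH12 is a classical type II cadherin, a calcium-dependent adhesion molecule of neurons that is linked to catenins inside the cell. SYT10 is a synaptotagmin, a calcium sensor that triggers fusion of secretory vesicles, and in mouse olfactory neurons it releases an insulin-like growth factor. In the cervix, estradiol maintains the progesterone receptor and a thin mucus, and progesterone opposes both.

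The hormone treatment was visible in known target genes. FKBP5, a chaperone gene that the progesterone receptor induces, rose in every progesterone group, by 2.39 on the log2 scale in E+1P and by 1.58 in E+14P (limma adjusted p = 1.99e-06 and 0.000206). PGR, the progesterone receptor, fell by 1.10 in E+1P and by 1.56 in E+3P (limma adjusted p = 0.00295 and 0.000108), and ESR1, an estrogen receptor, fell by 0.92 in E+1P (limma adjusted p = 0.0140). No 2 arrays held identical values. In 3 arrays a mean over epithelial markers (columnar, squamous or ciliated) deviated from the median array by more than 4 scaled median absolute deviations. E+3P replicates 2 and 3 had ciliated cell means of 4.64 and 4.72 on the log2 scale and E+14P replicate 4 had 4.82, beside 5.94 to 7.44 in the other 22 arrays. Values of the 5 genes and of the day 3 markers that rest on these arrays are given with and without them.

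The 5 genes followed different courses. SEMA3D, GRIA2 and CDH12 were already low after 1 day of progesterone, where their signals were 6.95-fold, 5.06-fold and 5.00-fold lower than in E2 cervix. SYT10 and ECRG4 differed little from E2 on that day, 1.47-fold and 1.12-fold lower, and reached 7.66-fold and 3.57-fold lower on day 3. By day 14 GRIA2 was 1.76-fold lower than E2, while the others were 5.12-fold to 7.23-fold lower. The SYT10 values rest in part on the 3 arrays with low ciliated cell means. Without them SYT10 differed from E2 by -1.52 at day 3 and -2.23 at day 14 on the log2 scale. In whole tissue, fewer cells of a type and less RNA per cell cannot be told apart.

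**Figure D1:**
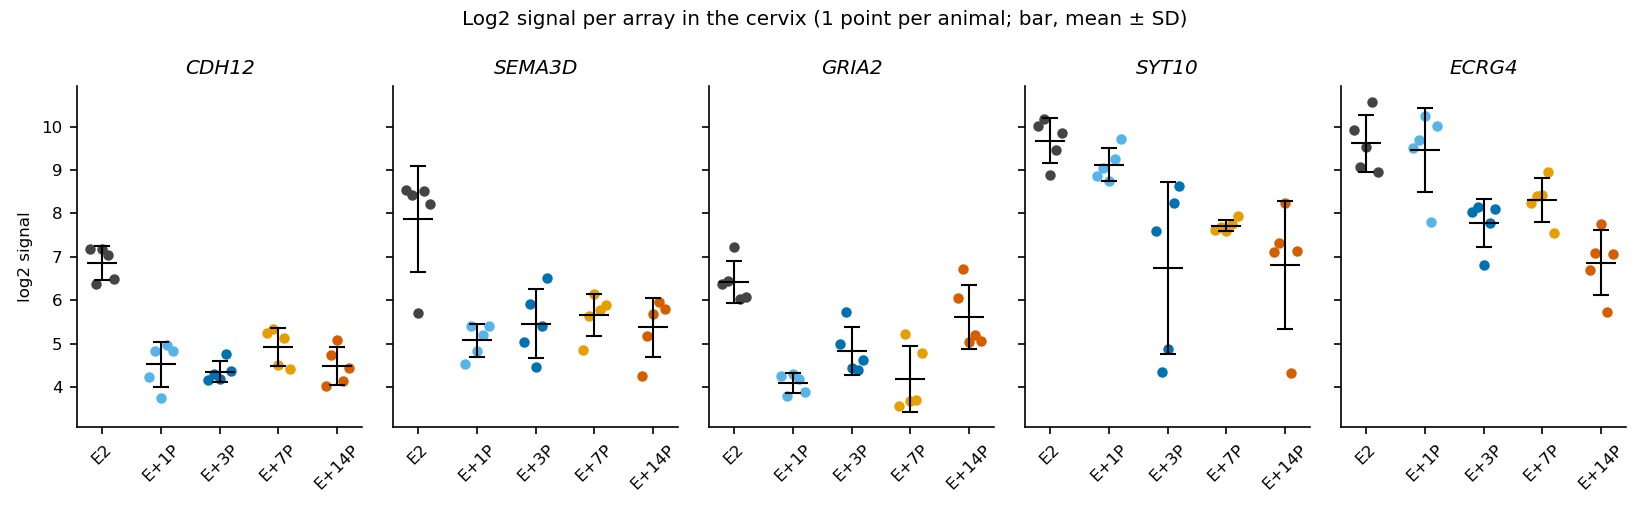
Log2 signal (y axis) of SEMA3D, GRIA2, SYT10, CDH12 and ECRG4 in the 5 groups from E2 to E+14P (x axis), with 1 point per animal and a bar for the mean ± SD (n = 5). CDH12 signals under progesterone all sit below 5.36 and those of E2 above 6.36, while SYT10 in E+1P averages 9.12, beside 9.68 in E2, and 4 of 5 ECRG4 points of E+1P lie within the E2 range, replicate 4 at 7.80 being lower.

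CDH12 showed the cleanest separation. Its log2 signals were 7.18, 6.37, 7.18, 7.03 and 6.49 in E2 cervix. They were 4.23, 4.85, 3.76, 4.97 and 4.84 in E+1P and 4.18, 4.30, 4.20, 4.77 and 4.37 in E+3P. In E+7P they were 5.25, 5.35, 4.51, 5.13 and 4.42, and in E+14P 4.03, 4.75, 5.09, 4.15 and 4.45. All 20 progesterone arrays lay below all 5 E2 arrays, a pattern shared by 0.624% of all genes. Group means were 6.85 ± 0.39, 4.53 ± 0.52, 4.36 ± 0.24, 4.93 ± 0.43 and 4.49 ± 0.44 from E2 to E+14P (SD, n = 5). The differences from E2 were -2.32, -2.49, -1.92 and -2.36 on the log2 scale at 1, 3, 7 and 14 days. Day 1 held 93.4% of the largest of these differences. The 4 progesterone means lay within 0.57 of each other, with E+7P highest. The progesterone means were also below 5.54, the median of all probe set means, and no detection calls were used here, so how far these signals stand above background is unknown.

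SEMA3D, the secreted guidance cue, had log2 signals of 8.54, 8.42, 5.71, 8.52 and 8.22 in E2 cervix. In E+1P they were 4.55, 5.42, 4.84, 5.19 and 5.42, and in E+3P 5.05, 5.91, 4.46, 5.40 and 6.51. In E+7P they were 4.85, 5.64, 6.16, 5.78 and 5.89, and in E+14P 4.27, 5.18, 5.68, 5.95 and 5.81. E2 replicate 3 was low, within the range of the progesterone groups, and the other 4 E2 arrays were above every progesterone array. With that array, 13 of 20 progesterone arrays lay below all E2 arrays, and without it all 20 did. Means were 7.88 ± 1.22, 5.08 ± 0.38, 5.47 ± 0.79, 5.66 ± 0.49 and 5.38 ± 0.69 from E2 to E+14P (SD, n = 5), and the E2 mean was 8.42 ± 0.15 without replicate 3 (SD, n = 4). The differences from E2 were -2.80, -2.42, -2.22 and -2.50 at 1, 3, 7 and 14 days, and -3.34, -2.96, -2.76 and -3.04 without that array. On the same E2 array SYT10 also had the lowest signal of its group, 8.88. GRIA2 had the highest of its group, 7.24, CDH12 had 7.18, near the top of its group, and ECRG4 had 9.53, inside the range of the other E2 arrays. So not all of the 5 genes were low on that array. The array's columnar epithelium mean was the lowest of E2, 7.47, as were its squamous epithelium and leukocyte means, 4.84 and 5.79. Its smooth muscle mean, 8.52, and its ciliated cell mean, 7.44, were the highest of E2. The part of these in its SEMA3D signal was not tested.

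GRIA2, the glutamate receptor subunit, had log2 signals of 6.38, 6.44, 7.24, 6.03 and 6.07 in E2 cervix. They were 4.26, 3.81, 4.31, 4.19 and 3.89 in E+1P and 4.99, 5.74, 4.45, 4.39 and 4.63 in E+3P. In E+7P they were 3.58, 5.24, 3.69, 3.71 and 4.78, and in E+14P 6.05, 6.72, 5.04, 5.20 and 5.07. Every array of E+1P, E+3P and E+7P was below every E2 array, whereas E+14P replicates 1 and 2 lay within the E2 range. Means were 6.43 ± 0.49, 4.09 ± 0.23, 4.84 ± 0.55, 4.20 ± 0.76 and 5.62 ± 0.74 from E2 to E+14P (SD, n = 5). The differences from E2 were -2.34, -1.59, -2.23 and -0.82 at 1, 3, 7 and 14 days. The difference at day 14 was 34.9% of that at day 1. Of the 5 genes, GRIA2 had the smallest difference from E2 at day 14.

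ECRG4, the augurin precursor, had log2 signals of 9.93, 9.07, 9.53, 10.58 and 8.95 in E2 cervix and 9.50, 9.69, 10.24, 7.80 and 10.02 in E+1P. They were 8.03, 8.14, 6.82, 7.79 and 8.10 in E+3P, and 8.25, 8.40, 8.43, 8.95 and 7.56 in E+7P. In E+14P they were 6.69, 7.09, 7.76, 5.74 and 7.07. On day 1 only replicate 4 was below the E2 range, and by day 14 every array was below it by over 1 log2 unit. Means were 9.61 ± 0.66, 9.45 ± 0.96, 7.78 ± 0.55, 8.32 ± 0.50 and 6.87 ± 0.74 from E2 to E+14P (SD, n = 5). The differences from E2 were -0.16, -1.83, -1.29 and -2.74, and day 1 held 5.82% of the largest. With single arrays left out the day 1 difference lay between -0.36 and 0.25. Even at day 14 the mean ECRG4 signal stood above 5.54, the median of all probe set means.

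SYT10, the vesicle calcium sensor, had log2 signals of 10.02, 10.16, 8.88, 9.46 and 9.86 in E2 cervix and 8.85, 9.05, 8.76, 9.24 and 9.70 in E+1P. In E+3P they were 7.61, 4.35, 4.89, 8.23 and 8.62, the widest spread of the 5 groups. In E+7P they were 7.61, 7.69, 7.61, 7.76 and 7.93, and in E+14P 7.11, 7.32, 8.24, 4.33 and 7.13. The 3 lowest values, 4.35 and 4.89 in E+3P and 4.33 in E+14P, came from the 3 arrays with low ciliated cell means. Means were 9.68 ± 0.52, 9.12 ± 0.37, 6.74 ± 1.98, 7.72 ± 0.13 and 6.82 ± 1.47 from E2 to E+14P (SD, n = 5). Without those 3 arrays they were 8.15 ± 0.51 in E+3P (SD, n = 3) and 7.45 ± 0.53 in E+14P (SD, n = 4). The differences from E2 were -0.55, -2.94, -1.96 and -2.85. Without the arrays in question they were -1.52 at day 3 and -2.23 at day 14. Every array of E+3P, E+7P and E+14P was below every E2 array, with or without them.

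Counted by group, 3 of the 5 genes had every array below every E2 array in E+1P, where 3.54% of all genes did. The count was 4 in E+3P, where 4.17% of all genes did, 3 in E+7P (4.68%) and 3 in E+14P (3.99%). CDH12 was among them at all 4 times, GRIA2 at day 1, day 3 and day 7, and SEMA3D at day 1. ECRG4 was among them at day 3 and day 14, and SYT10 at day 3, day 7 and day 14. These counts use the values by which the genes were chosen and are given as a description.

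The differences between progesterone times hold no E2 signal, but the E2 arrays enter their standard errors, which pool the spread of all 25 arrays. They were tested with limma, with p values adjusted by Benjamini and Hochberg over all 40489 probe sets and a threshold of 0.05. The tests are thus not independent of the E2 arrays by which the genes were chosen. The progesterone arrays themselves were part of the choice of the genes. ECRG4 and SYT10 fell between day 1 and day 3. ECRG4 averaged 7.78 ± 0.55 in E+3P and 9.45 ± 0.96 in E+1P (SD, n = 5), a log2 difference of -1.67 with a standard error of 0.42 (limma adjusted p = 0.0235). SYT10 averaged 6.74 ± 1.98 in E+3P and 9.12 ± 0.37 in E+1P (SD, n = 5), a difference of -2.38 with a standard error of 0.67 (limma adjusted p = 0.0445), and all 5 E+3P arrays were below all E+1P arrays, as for 3.61% of all genes. Thus 2 of the 5 genes fell and 0 rose in this interval, in which 4.13% of all genes fell and 1.76% rose. At an unadjusted p under 0.05, 3 of the 5 differed.

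Neither fall held in every fit. Without the 3 arrays with low ciliated cell means the differences were -0.97 for SYT10 and -1.48 for ECRG4 (limma adjusted p = 0.112 and 0.108). The SYT10 call was also lost when any of 19 single arrays was left out, with differences between -2.60 and -1.78 and a highest limma adjusted p of 0.146. The ECRG4 call was lost without E+1P replicate 1, 3 or 5 or without E+3P replicate 3, with differences between -1.66 and -1.44 and a highest limma adjusted p of 0.0777.

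The other genes did not pass the test between day 1 and day 3. GRIA2 averaged 4.84 in E+3P and 4.09 in E+1P, and all 5 E+3P arrays were above all 5 E+1P arrays, a non-overlap in that direction shared by 2.68% of all genes (difference 0.75, limma adjusted p = 0.219). The differences were 0.38 for SEMA3D and -0.16 for CDH12 (limma adjusted p = 0.670 and 0.749). Between day 3 and day 7, 0 of the 5 genes passed in limma, and 1, CDH12, had an unadjusted p under 0.05, with a difference of 0.57. Over all genes, 0% fell and 0.00644% rose in that interval. Between day 7 and day 14, 0 of the 5 passed in limma, where 0% of all genes did in either direction. At an unadjusted p under 0.05 there were 2, GRIA2 with a difference of 1.42 and ECRG4 with -1.45 (limma adjusted p = 0.987 for both).

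Over all 4 progesterone times together, the F test in limma called ECRG4 (adjusted p = 0.00409) and GRIA2 (adjusted p = 0.0350), where 4.37% of all genes were called. The adjusted p was 0.0996 for SYT10, 0.430 for CDH12 and 0.811 for SEMA3D. Leaving out single arrays kept the ECRG4 call, with adjusted p values between 0.000404 and 0.0190, whereas the GRIA2 call was lost without any 1 of 10 arrays, with a highest adjusted p of 0.0868. Those 10 were every E+1P array, replicates 1, 3 and 4 of E+7P, and replicates 1 and 2 of E+14P. SYT10 passed, at 0.00227, when the 3 arrays with low ciliated cell means were left out, and at 0.0319 without E+3P replicate 5.

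The longest and the shortest progesterone exposure were also compared directly, a comparison chosen after the values were seen. ECRG4 averaged 6.87 ± 0.74 in E+14P and 9.45 ± 0.96 in E+1P (SD, n = 5), lower in all 5 E+14P arrays than in any E+1P array, and fell by 2.58 with a standard error of 0.42 (limma adjusted p = 0.000678). Such a non-overlap was shared by 4.73% of all genes. GRIA2 moved the other way. It averaged 5.62 ± 0.74 in E+14P and 4.09 ± 0.23 in E+1P (SD, n = 5), and rose by 1.52 with a standard error of 0.35 (limma adjusted p = 0.0156), with all 5 E+14P arrays above all E+1P arrays, as for 4.6% of all genes. In this comparison 2.96% of all genes fell and 1.8% rose. Without E+14P replicate 2 the GRIA2 difference was 1.25 (limma adjusted p = 0.0520), and with 3 marker means as covariates it was 1.11 (limma adjusted p = 0.0796). SYT10 differed by -2.30 with no overlap between the groups (limma adjusted p = 0.0628), and passed without the 3 arrays with low ciliated cell means, with a difference of -1.67 (limma adjusted p = 0.000902). It also passed without E+3P replicate 2, 3 or 5 or without E+14P replicate 3 (lowest limma adjusted p = 0.0276). SEMA3D and CDH12 differed by 0.30 and -0.03 (limma adjusted p = 0.836 and 0.975).

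The genes did not vary together from animal to animal within a group. Over the 25 arrays, the correlations of deviations from group means among the 10 pairs of genes ran from -0.33 for SEMA3D and GRIA2 to 0.32 for SYT10 and ECRG4. With the group differences kept in, the pairs closest in signal were SEMA3D and CDH12, with r = 0.75, and SYT10 and ECRG4, with r = 0.72. GRIA2 and ECRG4 had r = -0.01. These values describe the same 25 arrays, and the choice of the genes raises those that keep the group differences.

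The courses of the 5 genes were set against markers of nerve. Of 21 neuron markers 14 were measured, of 16 Schwann cell and glia markers 12, and of 9 neuroendocrine markers 6. The neuron mean was 4.35 in E2, 4.33 in E+1P, 4.79 in E+3P, 4.43 in E+7P and 4.48 in E+14P, so the E+1P mean lay within the E2 range of 4.21 to 4.41 and the later means were above it. In E+1P, where 1.47% of all genes fell, 1 of the 14 neuron markers was called. This was SNAP25, which fell by 1.34 (limma adjusted p = 0.0416) and whose call was lost without any 1 of 11 arrays (highest limma adjusted p = 0.109). In E+3P the call was ELAVL4, with a difference of 0.60 (limma adjusted p = 0.0463). ELAVL4 stood at 3.89 on E+3P replicate 2, against at most 3.10 on any other array, and without that array the difference was 0.38 (limma adjusted p = 0.132). In E+7P and E+14P 0 neuron markers passed in limma, also at an unadjusted p under 0.05. Among Schwann cell and glia markers GFRA3, a receptor for artemin, fell by 1.68 in E+3P, by 2.07 in E+7P and by 2.18 in E+14P (limma adjusted p = 0.0106, 0.00343 and 0.00252), and ERBB3 rose in E+7P. The GFRA3 call in E+3P was lost without the 3 arrays with low ciliated cell means, with a difference of -1.64 (limma adjusted p = 0.0533). MBP was called in E+3P with a difference of 0.52, and without E+3P replicate 2 the difference was 0.35 (limma adjusted p = 0.107). SCG3, a secretory granule protein gene, fell by 1.21 in E+14P (limma adjusted p = 0.0397). The Schwann cell and glia mean was 5.39, 5.35, 5.54, 5.27 and 5.26 from E2 to E+14P, with overlap between E2 and every other group. The neuroendocrine mean was 4.09, 3.98, 4.22, 3.86 and 3.76, and every E+7P and E+14P array lay below the E2 range of 4.05 to 4.11. The part of these cells in the courses of the 5 genes was not tested. The neuron markers did not fall as a list with the 5 genes. Their E2 mean of 4.35 was below 5.54, the median of all probe set means, with ELAVL4 at 2.39 and ELAVL2 at 3.06. Such a list may have little room to fall, so it cannot decide whether nerve content changed. The genes are called here by their symbols and not as a neural class.

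**Figure D2:**
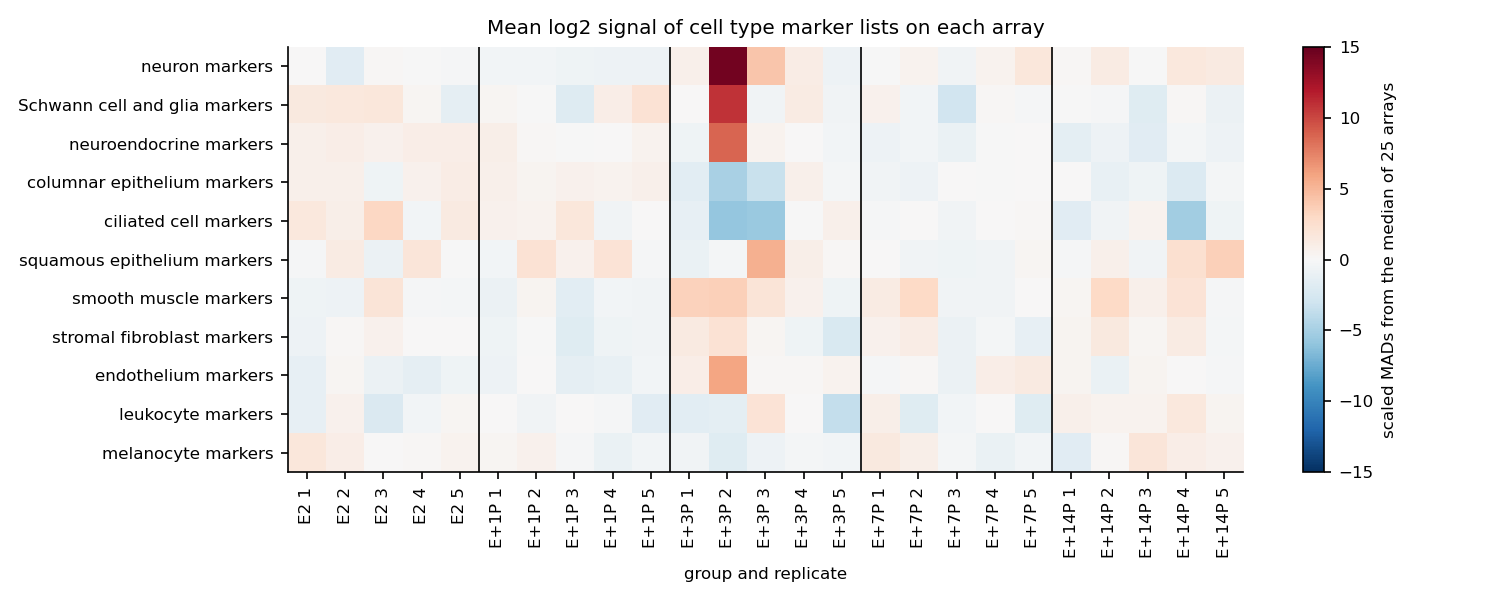
Mean log2 signal of 11 cell type marker lists (rows) on each of the 25 arrays (columns, by group and replicate), in scaled median absolute deviations around the median array. E+3P replicate 2 stands out in the neuron list at 5.87 on the log2 scale, and it shares low ciliated cell means with E+3P replicate 3 and E+14P replicate 4.

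1 array was rich in nerve transcripts. E+3P replicate 2 had a neuron mean of 5.87, against 4.21 to 4.82 in the other 24 arrays, a Schwann cell and glia mean of 6.40, against 5.04 to 5.53, and a neuroendocrine mean of 5.46, against 3.64 to 4.11. Of the 32 nerve genes measured, 24 were highest on it, among them NEFL, a neurofilament gene, at 6.97 and CHGB, a granin, at 7.97. GRIA2, at 5.74, and ECRG4, at 8.14, had their highest E+3P signals there, and SYT10, at 4.35, its lowest. Without that array the E+3P differences from E2 were -1.82 for GRIA2, -1.93 for ECRG4, -2.34 for SYT10, -2.53 for SEMA3D and -2.47 for CDH12. The part of nerve content in the E+3P signals of GRIA2 and ECRG4 was not tested.

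SYT10 varied with the epithelial markers. Columnar epithelium means were 8.06 ± 0.34, 8.12 ± 0.08, 6.86 ± 1.15, 7.69 ± 0.18 and 7.38 ± 0.41 from E2 to E+14P (SD, n = 5), and ciliated cell means were 6.87 ± 0.41, 6.60 ± 0.26, 5.71 ± 0.97, 6.43 ± 0.09 and 5.98 ± 0.69 (SD, n = 5). In E+3P, 6 of 20 columnar markers fell against E2 and 1 rose, and 5 of 14 ciliated cell markers fell. Over all genes 7.16% fell and 5.03% rose in that comparison. CLDN10, a claudin, fell by 3.07, AGR2, of mucus-secreting cells, by 3.22 and CFAP126, of motile cilia, by 1.97 (limma adjusted p = 0.000459, 0.00203 and 0.0117). Without the 3 arrays with low ciliated cell means, 5 columnar and 3 ciliated cell markers fell and 1 columnar marker rose, and the differences were -2.24 for CLDN10, -1.96 for AGR2 and -1.03 for CFAP126 (limma adjusted p = 0.00708, 0.00688 and 0.0258). In E+1P, where SYT10 was 0.55 below E2, 0 of 20 columnar and 0 of 14 ciliated cell markers passed in limma, with 6 and 1 at an unadjusted p under 0.05. On that day 1.47% of all genes fell and 2.09% rose.

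Across the 25 arrays, deviations of SYT10 from its group mean followed those of the columnar mean. Pearson's r was 0.85 (permutation p = 0.00088, adjusted 0.0242 over 55 relations), Spearman's rho was 0.65 (permutation p = 0.00677, adjusted 0.257), and r was 0.81 without the 2 arrays farthest from the median and 0.72 without the 3 arrays with low ciliated cell means. For the ciliated cell mean r was 0.84 (permutation p = 0.00820, adjusted 0.107) and rho 0.55 (permutation p = 0.0290, adjusted 0.399), with r = 0.72 without the 2 farthest arrays and 0.58 without those 3. Against the neuron mean SYT10 ran the opposite way, with r = -0.70 (permutation p = 0.00052, adjusted 0.0242), rho = -0.56 (permutation p = 0.00933, adjusted 0.257) and r = -0.55 without the 2 farthest arrays. By rank, none of the 55 relations passed after adjustment. SYT10 and the marker means come from the same arrays. With the columnar, squamous and smooth muscle means as covariates the differences of SYT10 from E2 were -0.89 in E+3P and -1.64 in E+14P, and its fall between day 1 and day 3 was -0.38 (limma adjusted p = 0.761).

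**Figure D3:**
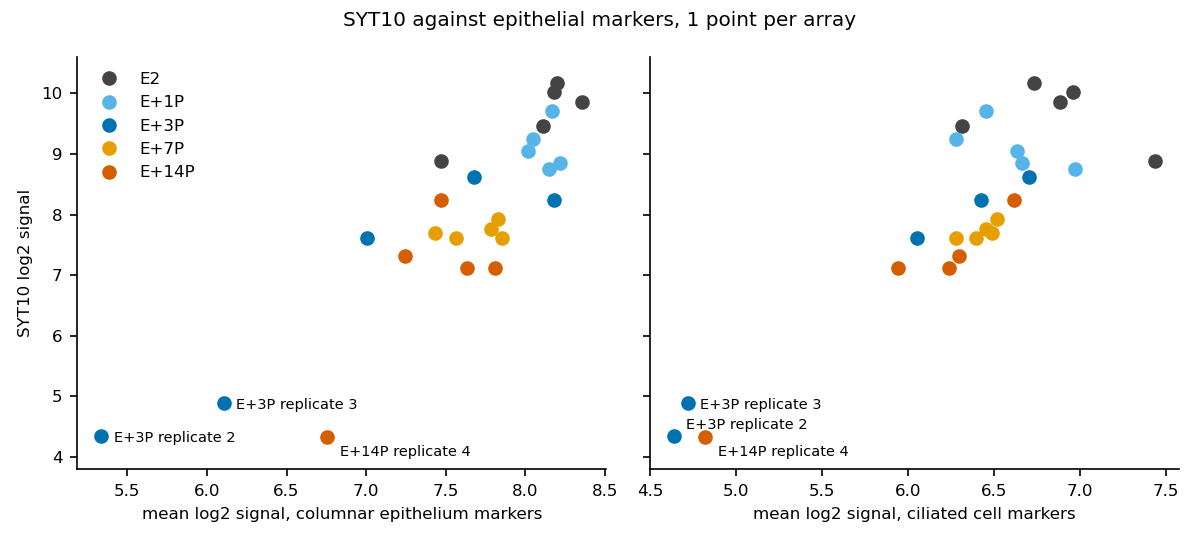
SYT10 log2 signal (y axis) against the mean log2 signal of columnar epithelium markers and of ciliated cell markers (x axes), with 1 point per array and colours for the 5 groups from E2 to E+14P. The 3 arrays with SYT10 below 5, E+3P replicates 2 and 3 and E+14P replicate 4, are also the 3 with the lowest ciliated cell means.

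For the other 4 genes no marker list passed after adjustment over the 55 relations. ECRG4, which was also lower from day 3 on, had r = 0.15 with the columnar mean (permutation p = 0.484, adjusted 0.740) and rho = 0.04 (permutation p = 0.857, adjusted 0.884), with r = 0.35 without the 2 farthest arrays. With the ciliated cell mean ECRG4 had r = 0.39 (permutation p = 0.0497, adjusted 0.304) and rho = 0.29. With the squamous mean it had r = -0.44 (permutation p = 0.034, adjusted 0.304) and rho = -0.34. Leaving out the 3 arrays with low ciliated cell means gave r = 0.24 and -0.25. Without the 3 arrays with low ciliated cell means its group means were 7.97 ± 0.17 in E+3P (SD, n = 3) and 7.15 ± 0.45 in E+14P (SD, n = 4), close to those with them. GRIA2 had r = 0.58 with the smooth muscle mean (permutation p = 0.00970, adjusted 0.107) and rho = 0.46 (permutation p = 0.0535, adjusted 0.532), with r = 0.42 without the 2 farthest arrays. That mean was 7.23 in E2, 6.81 in E+1P, 8.39 in E+3P, 7.62 in E+7P and 7.99 in E+14P, and its part in the GRIA2 course was not tested apart from the fit with covariates.

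The relatives of the 5 genes were then examined, to see whether the families moved with them. The lists held 218 family and partner genes beside the 5, of which 179 were measured. Against E2, 2 of the 179 rose and 6 fell in E+1P, where 2.09% of all genes rose and 1.47% fell. In E+3P 10 rose and 4 fell, where 5.03% of all genes rose and 7.16% fell. In E+7P 3 rose and 2 fell (2.27% and 3.58% of all genes), and in E+14P 7 rose and 4 fell (2.26% and 3.53% of all genes). As shares of the 179 these were 1.12% and 3.35%, 5.59% and 2.23%, 1.68% and 1.12%, and 3.91% and 2.23%. The median difference over the 179 was between 0.00 and 0.17 at the 4 times, beside -0.00 to 0.05 over all genes. The E+3P count of 14 was 2 in a fit of these groups alone, 6 without the 3 arrays with low ciliated cell means, and 6 to 26 with single arrays left out.

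**Figure D4:**
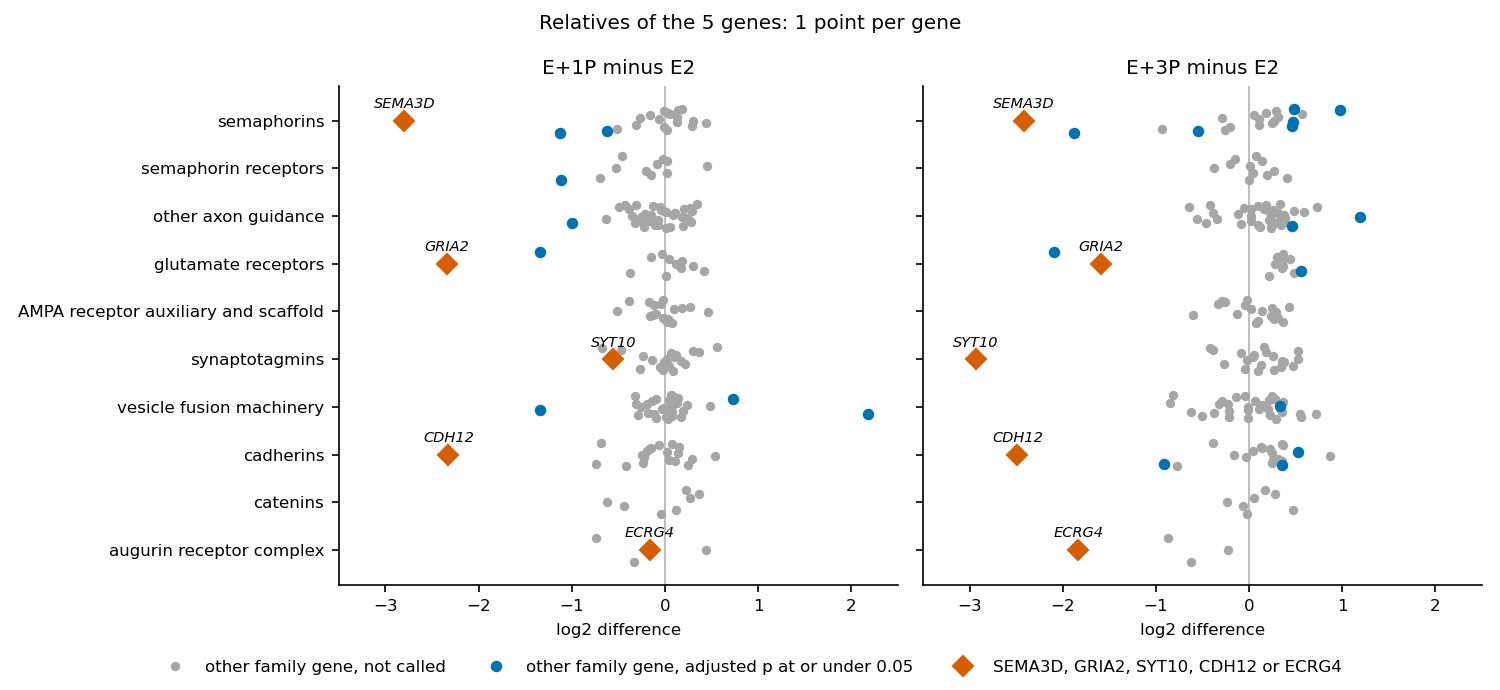
Log2 difference from E2 (x axes) of the measured relatives of the 5 genes in E+1P and in E+3P, by family (rows), with 1 point per gene, called genes in blue and SEMA3D, GRIA2, SYT10, CDH12 and ECRG4 as orange diamonds. CDH12 and SEMA3D, chosen for lower signals, lie at -2.32 or lower in E+1P and in E+3P, and the median relative lies at 0.00 and 0.17.

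Among 19 other semaphorins, SEMA3A, also a secreted class 3 guidance cue, was called at all 4 times. Its log2 differences from E2 were -1.13, -1.87, -1.35 and -1.30 at 1, 3, 7 and 14 days, all called (limma adjusted p = 0.0192, 0.000175, 0.00364 and 0.00538). The day 1 call was lost when E+1P replicate 2 was left out, or any of E2 replicates 1, 2 and 5 (highest limma adjusted p = 0.0644). SEMA3B, of the same class, differed by -0.63, -0.55, -0.56 and -0.48, called at 1 and 3 days (limma adjusted p = 0.0425 and 0.0364), the first with a limma adjusted p of 0.0575 after quantile normalization and the second with 0.132 in a fit of these groups alone. These SEMA3B calls were lost without any 1 of 14 and of 8 arrays (highest limma adjusted p = 0.126 and 0.0936). SEMA5A, a transmembrane semaphorin, averaged 6.84 ± 0.30 in E+14P and 5.91 ± 0.29 in E2 (SD, n = 5) and rose by 0.93 (limma adjusted p = 0.0214). Leaving out E+14P replicate 4 or E2 replicate 3 ended this call (highest limma adjusted p = 0.0765). Among the 19 semaphorins 0 rose and 2 fell in E+1P, where 2.09% of all genes rose and 1.47% fell. In E+3P 4 rose and 2 fell (5.03% and 7.16% of all genes). In E+7P 0 rose and 1 fell (2.27% and 3.58% of all genes), and in E+14P 2 rose and 1 fell (2.26% and 3.53% of all genes).

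Of 11 semaphorin receptors 1 was called against E2, and 5 had an unadjusted p under 0.05 in E+1P. NRP1, a neuropilin that binds class 3 semaphorins, averaged 6.67 ± 0.11 in E+1P and 7.79 ± 0.38 in E2 (SD, n = 5) and fell by 1.11 (limma adjusted p = 0.0168), without overlap of the groups. On day 3 it was 7.78 ± 0.78, a difference of -0.00 from E2 and of 1.11 from E+1P (limma adjusted p = 0.0140 for the rise from day 1). The smooth muscle mean was also higher in E+3P, 8.39 against 6.81 in E+1P. Between these days 3 of its 16 markers rose in limma, where 1.76% of all genes rose. Without the 3 arrays with low ciliated cell means 0 of the 16 rose, with 5 at an unadjusted p under 0.05. The NRP1 rise was 0.81 without the 3 arrays with low ciliated cell means (limma adjusted p = 0.0973) and 0.35 with 3 marker means as covariates (limma adjusted p = 0.446). NRP2, the other neuropilin, also rose by 1.11 between day 1 and day 3 (limma adjusted p = 0.00734), and by 0.90 without those arrays (limma adjusted p = 0.0941). NRP2 differed from E2 by -0.70 in E+1P and by 0.41 in E+3P (limma adjusted p = 0.127 and 0.258). All 5 of its E+1P arrays were below all E2 arrays, as for NRP1 and for 3.54% of all genes. SEMA3D and NRP1 were both low on day 1, and later NRP1 differed from E2 by -0.31 in E+7P and -0.42 in E+14P (limma adjusted p = 0.588 and 0.418). PLXNA2, PLXNA4 and PLXND1, plexins that pair with neuropilins, did not pass against E2 at any time.

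Of 37 other axon guidance genes, 1 fell in E+1P, EFNB2, an ephrin ligand, by 0.99 (limma adjusted p = 0.00787). NTN4, a netrin of basement membranes, rose by 1.38 in E+7P and by 1.19 in E+14P (limma adjusted p = 0.00368 and 0.0120), the second with a limma adjusted p of 0.0731 in a fit of these groups alone. EPHB1, an ephrin receptor, rose by 1.20 in E+3P and 1.50 in E+14P (limma adjusted p = 0.0455 and 0.0265), calls that were lost without any 1 of 12 and of 7 arrays (highest limma adjusted p = 0.105 and 0.0803). UNC5D, a netrin receptor, rose by 0.83 in E+14P (limma adjusted p = 0.0231), which did not pass when E+14P replicate 1 or E2 replicate 3 was left out (highest limma adjusted p = 0.0636). SEMA3D's differences, -2.80 to -2.22, lay outside the range of these 37 genes over the 4 times, -0.99 to 1.50. SEMA3D was chosen for its low signals under progesterone and these genes were not, so this contrast is a description.

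Few glutamate receptors passed where GRIA2 was low. Of 25 listed, 11 were measured. GRIA1, the AMPA receptor subunit that most often pairs with it, differed from E2 by 0.01, 0.21, -0.01 and 0.10 at 1, 3, 7 and 14 days, and GRIA3 by -0.37, 0.48, -0.33 and 0.01. Neither passed the test. Their E2 means were 3.98 and 3.36, beside 6.43 for GRIA2, and below 5.54, the median of all probe set means. A fall as large as that of GRIA2 might not be seen from such signals. GRIA4 rose by 0.55 in E+3P (limma adjusted p = 0.0414), a call lost under both other normalizations. GRM8, a metabotropic receptor that couples to G proteins, was the relative that fell most, by 2.09 in E+3P, with a mean of 4.29 ± 0.34 in E+3P and 6.38 ± 1.16 in E2 (SD, n = 5, limma adjusted p = 0.00129). In a fit of the E+3P and E2 groups alone the limma adjusted p of this day 3 fall was 0.0512. GRM8 also fell by 1.34 in E+1P and by 1.30 in E+14P (limma adjusted p = 0.0488 and 0.0442). These groups overlapped E2, with 1 E+1P array and 0 E+14P arrays below every E2 array. Its difference was -1.12 in E+7P (limma adjusted p = 0.0827). In E+1P it was the only 1 of the 11 called, a share of 9.09%, where 1.47% of all genes fell. Among 18 AMPA receptor auxiliary and scaffold genes 1 was called, SHISA7, which fell by 0.74 in E+14P (limma adjusted p = 0.00518, and 0.0735 in a fit of these groups alone). GRIP1, a scaffold that binds GRIA2, differed by 0.12 or less at every time.

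Of 20 other synaptotagmins and synaptotagmin-like genes 1 was called, SYTL5, which rose by 1.06 in E+14P (limma adjusted p = 0.0130). SYT9 differed from E2 by 0.06, -0.09, -0.14 and -0.26 at 1, 3, 7 and 14 days and did not pass. SYT1 was not measured. Of 34 genes of the vesicle fusion machinery, RAB3B, a small GTPase of secretory vesicles, averaged 5.89 ± 0.50 in E+1P and 3.71 ± 0.17 in E2 (SD, n = 5) and rose by 2.18 (limma adjusted p = 0.00302). On that day SYT10 was 0.55 below E2, and when SYT10 was lower on day 3 RAB3B was 0.55 above E2 (limma adjusted p = 0.397). VAMP1, a vesicle SNARE, rose by 0.73 in E+1P (limma adjusted p = 0.00829), and RAB3D, a GTPase of secretory granules, fell by 0.67 in E+14P (limma adjusted p = 0.0100, and 0.0668 in a fit of these groups alone).

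Of 19 other cadherins 0 were called in E+1P, E+7P or E+14P in limma, with 3, 3 and 2 at an unadjusted p under 0.05. In E+3P 2 rose and 1 fell (5.03% and 7.16% of all genes). The fall was that of CDH11, a type II cadherin of mesenchymal cells like CDH12 in class, by 0.91 (limma adjusted p = 0.0169, and 0.127 in a fit of these groups alone). CDH11 was also 0.74 below E2 in E+1P, where it did not pass (limma adjusted p = 0.110). CDH1, the cadherin of epithelia, differed by -0.77 in E+3P (limma adjusted p = 0.182). CDH2 was not measured, and of 7 catenins 0 passed in limma at any time, with CTNNB1 between 0.06 and 0.27 above E2 and at most 2 at an unadjusted p under 0.05. TLR4, CD14 and LY96, the receptor complex reported for augurin, did not pass at any time either, and TLR4 differed by -0.74, -0.87, -0.53 and -0.61 from E2.

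The genes most alike in signal over the 25 arrays differed between the 5 genes. These correlations include the group differences for which the genes were chosen, so they are a description. SEMA3D was closest to ASF1B, a histone chaperone of dividing cells (r = 0.87), then to SRSF7, a splicing factor (0.86), CITED1, a transcription coregulator (0.86), ALDH4A1, an enzyme of proline breakdown (0.83), and DIO2, which activates thyroid hormone (0.83). The difference of CITED1 from E2 lay between -2.74 and -2.43 at the 4 times and that of DIO2 between -3.04 and -2.44. CDH12 was closest to SOX3, a transcription factor of neural progenitors (r = 0.90), the probe set listed for MIR424 (0.87), WFS1, of the endoplasmic reticulum (0.85), SLC35B1, a nucleotide transporter (0.85), and PORCN, which acylates Wnt proteins (0.84). In both sets the means of the like genes were below E2 at all 4 times, as they also were in the sets of SYT10, ECRG4 and GRIA2.

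SYT10 was closest to TSPAN8, a tetraspanin that is also on the columnar list (r = 0.93), then NPAS3 (0.92), TEX26 (0.92), STK33 (0.92) and CAPSL (0.91). TSPAN8 differed from E2 by -0.30 in E+1P and by -2.63 in E+3P, beside -0.55 and -2.94 for SYT10. ECRG4 shared TSPAN8 (r = 0.80), beside NDUFV3, of mitochondrial complex I (0.82), OGFRL1 (0.81), TUSC3, of protein glycosylation (0.80), and UGT8, of galactolipid synthesis (0.80). GRIA2 had lower values, with PHPT1, a protein histidine phosphatase (0.79), SNRNP25, of the minor spliceosome (0.78), CCDC43 (0.74), NDUFB7, of complex I (0.74), and PSMD1, of the proteasome (0.73). The largest difference of these 5 from E2 was -0.71 in E+1P, for SNRNP25, beside -2.34 for GRIA2.

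**Figure D5:**
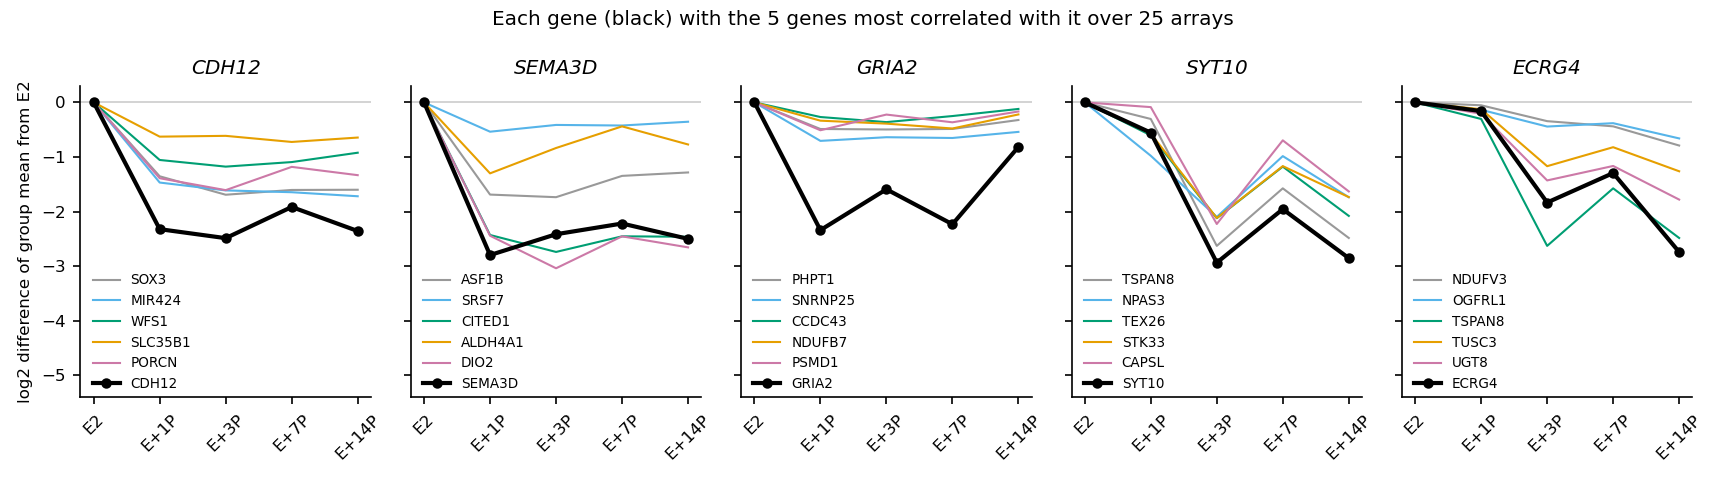
Difference of the group mean from E2 on the log2 scale (y axes) in the 5 groups from E2 to E+14P (x axes), with each of the 5 genes in black and the 5 genes most correlated with it over 25 arrays in colour. The likes of SEMA3D and CDH12 differ from E2 by -0.54 to -2.44 in E+1P, those of SYT10 by -0.09 to -0.98 in E+1P and by -2.10 to -2.63 in E+3P, and those of GRIA2 are no lower than -0.71.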

How the data were processed

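RNA from 25 macaque cervices, 5 per group, was read on 1 Affymetrix whole-transcript array each. The deposited values are log2 signals, the unit being read from their range, 0.618 to 13.69. Per the submitters' processing notes the authors used Affymetrix Expression Console; the sources used here name no version, summarization or normalization. Sorted values differed between arrays by at most 0.29 from their common mean. Replicates are separate animals numbered in accession order, which pairs no samples. Array number limits the precision, and signal over background is unknown.

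Of the probe sets, 16020 had 1 gene symbol, 490 several and 23979 none. A gene was its probe set with the highest mean. Genome positions and sequences are not used here. limma 3.58.1 in R 4.3.3 fitted 1 coefficient per group over 25 arrays (20 residual degrees of freedom, median prior 3.09, variance trend), with 2-sided tests. Each difference is the first or treated group minus the other. Its p values pool the spread over groups and are too small for a group that varies more. Correlations used 100000 permutations within groups.

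The 5 genes, the gene lists and the tests were chosen with earlier results of these data known. Named genes are the 5, their relatives and partners, PGR, ESR1, FKBP5, up to 4 called genes with the largest change per family list and, for each of the 5, the 5 genes of highest correlation; called nerve and epithelial markers, NEFL, CHGB and some examples were chosen after their values were seen, as were the correlations and marker counts without single arrays or the 3 of unlike makeup. Alternatives were quantile normalization, median centring, array weights, a fit without a variance trend, a filter at the 40th percentile of probe set means, the compared groups alone, the mean of a gene's probe sets, leaving out 3 arrays of unlike makeup, 3 marker means as covariates and leaving out each array. In a simulation of E+3P minus E+1P over 40489 probe sets, 70% of falls of 1 log2 unit and 94% of falls of 2 were recovered.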

Additional observations from a re-analysis of the deposited data

Results flagged for a closer look

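Of 80 groups of 5 arrays, over the 5 genes and 11 marker lists, 9 held an array whose gap to the nearest other array exceeded Dixon's critical value of 0.71 of the group's range; chance gives about 1 in 20. SEMA3D was 5.71 on E2 replicate 3, the lowest of its group, and on that array the columnar epithelium mean, 7.47, was the lowest and the smooth muscle mean, 8.52, the highest of E2. The neuron mean of E2 replicate 2, 4.21, was the lowest of its group. ECRG4 was 6.82 on E+3P replicate 3, and SYT10 was 4.33 on E+14P replicate 4, each the lowest of its group. On E+3P replicate 2 the Schwann cell and glia mean, 6.40, the neuroendocrine mean, 5.46, and the endothelium mean, 7.57, were the highest of their group.

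Among progesterone times, 4 differences of the 5 genes passed limma's test of the difference itself. Between day 1 and day 3 SYT10 fell by 2.38 and ECRG4 fell by 1.67. Between day 1 and day 14 ECRG4 fell by 2.58 and GRIA2 rose by 1.52, a comparison chosen after the values were seen.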

How the results depend on the processing

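Over the alternatives, 0 called differences of the 5 genes or their relatives changed direction, and 1199 of the values for the 5 genes and the counts kept their direction and side of the threshold or stayed within the spread. Differences that passed in neither fit did change sign: SYT10 in E+7P minus E+3P, 0.98 as reported, was -0.43 without the 3 arrays of unlike makeup and -0.57 with makeup covariates, CDH12 in E+14P minus E+1P, -0.03, was 0.051 without the 3 arrays and ran from -0.23 to 0.083 with single arrays left out, and SEMA3D in E+7P minus E+3P, 0.20, ran from -0.056 to 0.46. So did the untested ECRG4 difference in E+1P, between -0.36 and 0.25, and 148 of 6075 values of relatives. Shifts of the median gene by scaling were at most 0.05. The SYT10 fall between day 1 and day 3 missed the threshold with array weights (-2.03, adjusted p = 0.0569), without the 3 arrays of unlike makeup (-0.97), with 3 makeup covariates (-0.38) and with the groups alone (-2.38, adjusted p = 0.164). That of ECRG4 missed it with array weights (-1.60, adjusted p = 0.0517), without the 3 arrays (-1.48), with covariates (-1.49, adjusted p = 0.180) and with the groups alone (-1.67, adjusted p = 0.0996). SYT10 between day 1 and day 14 passed in limma at -2.30 without dim probe sets (adjusted p = 0.0425), with the mean of probe sets (0.0399) and with the groups alone (0.0476), at -2.34 with array weights (0.0138) and at -1.67 without the 3 arrays. Its F test passed with array weights (0.0365) and without the 3 arrays (0.00227). GRIA2 missed with covariates between day 1 and day 14 (1.11) and with the groups alone in the F test (0.0598). Differences of SYT10 from E2 moved to -1.52 in E+3P without the 3 arrays, and with covariates to -0.89 in E+3P and -1.64 in E+14P. The cause was not tested.

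Counts of called relatives, 8, 14, 5 and 11 from E+1P to E+14P, were 14 in E+1P with array weights; 6 without the 3 arrays, 8 with covariates and 2 with the groups alone in E+3P; 10 without dim probe sets, 14 with array weights, 9 with the mean of probe sets, 10 without the 3 arrays and 14 with covariates in E+7P; and 5 with the groups alone in E+14P. Leaving out single arrays gave 4 to 11, 6 to 26, 3 to 9 and 8 to 12. The count moved by over 1.5 times in E+1P without E+1P replicates 2, 3, 4 or 5, E+7P replicate 3 or E2 replicates 1, 4 or 5, in E+3P without E+3P replicates 1, 2, 3 or 5 or E2 replicates 1, 2, 4 or 5, and in E+7P without E+3P replicate 2 or E2 replicates 3 or 4. In the same runs the SYT10 fall between day 1 and day 3 ran from -2.85 to -1.78 and that of ECRG4 from -2.09 to -1.44. The difference between day 1 and day 14 ran from -2.65 to -1.67 for SYT10 and from 1.25 to 1.67 for GRIA2. Adjusted p values of the F test ran from 0.0319 to 0.206 for SYT10 and from 0.0131 to 0.0868 for GRIA2. The filter on dim probe sets leaves out GRIA2 and CDH12, which have no value there. No paired analysis was possible because each group holds different animals and the replicate numbers follow accession order. Depth has no count on arrays, and signal over background was not known.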
